A study of Mus musculus with 11 samples.

Results

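The Src family kinases are membrane-anchored tyrosine kinases, and 7 of them were followed here across all 5 groups of a mouse culture experiment: Blk, Lyn, Fgr, Fyn, Src, Lck and Yes1. They were chosen by name, as the rows of the authors' normalized count table that carry these symbols, 7 of 21860 genes, and all 7 passed the filter on low values. The group was proposed because of the level of Blk in these samples, so Blk is described without a test, and tests were read for the other 6 members.

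RNA was sequenced in bulk from CD11b-low EpCAM+ cells sorted after 6 days of culture of mouse bone marrow monocytes. Such cultures give cells that resemble monocyte-derived Langerhans cells, the phagocytes of the epidermis, and the question behind the design was how Notch and aryl hydrocarbon receptor (Ahr) signals act on them. GM-CSF was present throughout, at 20 ng/ml. The group called Jag1 only was 1 culture with GM-CSF and Jag1. The other 10 also had TGFβ (5 ng/ml) and IL-34 (8 µg/ml), either with nothing more (TGFβ/IL-34, n = 2), with FICZ (TGFβ/IL-34/FICZ, n = 2), with Jag1 (TGFβ/IL-34/Jag1, n = 3) or with Jag1 as well as FICZ (TGFβ/IL-34/Jag1/FICZ, n = 3). Jag1, a Notch ligand, was presented by the mouse stromal line OP9, and the labels name OP9 co-culture for every sample, also those without Jag1 in the title. Yet 8 markers of OP9 stroma summed to 12.8 to 22.0 in TGFβ/IL-34 and 23.4 to 38.0 in TGFβ/IL-34/FICZ. In the libraries with Jag1 they summed to 332 to 4096. Whether plain OP9 cells were present without Jag1 is unknown. In comparisons of cultures with and without Jag1, the ligand and the stromal cells therefore cannot be told apart. FICZ binds Ahr. The study calls it an agonist and the deposited design text an antagonist, and its dose was not found in the sources used here.

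Values are normalized counts, scaled by the authors so that libraries can be compared. They summed to 21.3 to 27.8 M per library, from an estimated 20.6 to 24.2 M reads, and 1 read was worth 0.894 to 1.15 normalized counts. Where a gene is at 0, as many as 3 reads could have been missed, which is 2.68 to 3.45 normalized counts depending on the library and covers counting error only. The leukocyte marker Ptprc (3297 to 7315) and Epcam (657 to 14377) were present in all 11 libraries. The Langerhans cell marker Cd207 stood at 1366 to 1784 in TGFβ/IL-34/Jag1 but at 6.21 to 6.90 in TGFβ/IL-34/FICZ and at 8.39, 6.29 and 132 in TGFβ/IL-34/Jag1/FICZ. The Jag1 only library was the lowest in Epcam and held 21.8 of Cd207. The 2 TGFβ/IL-34/FICZ libraries came from different experiments and differed from each other in several members. Their descriptions also carry different codes that were read here as flow cells, a term the labels do not give. The code of TGFβ/IL-34/FICZ replicate 1 was shared only by TGFβ/IL-34/Jag1/FICZ replicate 1. It thus occurred only in libraries with FICZ, and this code and FICZ are partly confounded. In such bulk samples, fewer cells of a type and less RNA per cell cannot be told apart.

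Src family kinases share a fatty-acid anchor at the inner face of the cell membrane, SH3 and SH2 domains and a kinase domain that is held closed when its tail is phosphorylated by Csk and opened when phosphatases such as CD45 (Ptprc) remove that phosphate. In leukocytes they phosphorylate the ITAM motifs of activating receptor complexes, which then bind Syk or Zap70, and the ITIM motifs of inhibitory receptors, which then bind phosphatases. Lyn and Fgr are best known from myeloid cells, Blk from B cells, Lck from T cells, and Fyn, Src and Yes1 from a wide range of tissues.

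Blk is the member whose level differed most between the groups, so the 250 bases before its annotated start are shown. Blk (ENSMUSG00000014453) lies on the minus strand of chromosome 14, from 63610285 to 63654587 in GRCm39, and these bases are chr14:63654588-63654837 on the minus strand, read 5′ to 3′ from the GRCm39 genome with the GENCODE vM39 start. Capitals mark TTCCCA, the reverse complement of TGGGAA, the core bound by RBPJ, the DNA-binding partner of the Notch receptors.

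Blk: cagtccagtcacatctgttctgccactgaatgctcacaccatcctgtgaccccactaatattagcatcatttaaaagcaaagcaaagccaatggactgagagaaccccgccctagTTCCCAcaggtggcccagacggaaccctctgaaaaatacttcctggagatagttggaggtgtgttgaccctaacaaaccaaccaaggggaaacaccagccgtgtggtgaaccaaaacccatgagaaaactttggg

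This match lay 135 bases before the start. TGGGAA, counted on both strands, was found in 22.7% of 21757 promoters of the same length, and among the members also once each in those of Fgr and Lck. The Ahr core GCGTG was not found in the Blk window. It was found in 31.2% of all promoters, 1 time each in Lyn and Fgr and 3 times in Yes1. The PU.1 core GAGGAA was found in 22.9% of all promoters and, among the members, in Lck. These matches are descriptions of the letters and no binding was measured.

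Blk encodes B lymphoid kinase, which acts downstream of the B cell receptor. In the 3 TGFβ/IL-34/Jag1 libraries it stood at 1520, 1033 and 948 normalized counts. In the TGFβ/IL-34 libraries it stood at 5.25 and 2.61, and in TGFβ/IL-34/FICZ at 0 and 1.64. With Jag1 and FICZ together the libraries held 1.71, 5.75 and 28.5, and the Jag1 only library held 195. The TGFβ/IL-34/Jag1 libraries were thus the highest 3 of the 11, Jag1 only was next, and every library without Jag1 or with FICZ was at 28.5 or lower. The mean of 1167 ± 309 (SD, n = 3) with Jag1 was 297 times that of the TGFβ/IL-34 libraries, 3.93 ± 1.86 (SD, n = 2). Its 95% counting interval of 150 to 688 rests on an estimated 8 reads in the lower group. Against TGFβ/IL-34/Jag1/FICZ (12.0 ± 14.4, SD, n = 3, an estimated 38 reads) the ratio was 97.4 (70.8 to 138). Of those 38 reads an estimated 31.1 were in replicate 3. Against TGFβ/IL-34/FICZ (an estimated 2 reads) the ratio was 1424 (394 to 11765). All intervals in this paragraph pool the reads of a group and cover counting error only, not the spread between its libraries. The ratio of TGFβ/IL-34/Jag1 to the Jag1 only library was 5.99 (5.17 to 6.97). Blk reached 10 normalized counts in 5 of the 11 libraries and entered the filtered set only through the groups in which it was high.

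On the log2(normalized count + 1) scale used for the tests below, the differences of Blk were 7.91 for Jag1 without FICZ, −7.13 for FICZ with Jag1, 2.32 for Jag1 with FICZ, −1.55 for FICZ without Jag1 and −5.59 for their interaction. Those with a group near 0 depend on the added 1. The 3 pairs of TGFβ/IL-34/Jag1 cultures with and without FICZ that share an experiment stood at 1520 without and 1.71 with FICZ, at 1033 and 5.75, and at 948 and 28.5. FICZ had the lower value in each pair, and the culture with the most Blk left under FICZ was replicate 3, which was also the one with the most Cd207 in that group (132 against 8.39 and 6.29).

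Since Blk is known from B cells, the 8 B cell markers were read beside it. Their summed level was 76.5 to 139 in TGFβ/IL-34/Jag1, 41.6 to 56.8 in TGFβ/IL-34, 115 to 132 in TGFβ/IL-34/Jag1/FICZ and 267 in Jag1 only. The groups with Jag1 and TGFβ/IL-34, with and without FICZ, overlapped in this sum. In the TGFβ/IL-34/Jag1 libraries Cd79a stood at 0, 4.17 and 0 and Pax5 at 3.41, 0 and 7.82. Cd79b stood at 6.26, 11.5 and 7.74 there, at 0.826 and 3.17 in TGFβ/IL-34 and at 47.1, 51.1 and 29.8 with Jag1 and FICZ. Ms4a1 stood at 6.83, 15.6 and 8.84 in TGFβ/IL-34/Jag1 and at 18.2 and 0 in TGFβ/IL-34. Fcmr held most of the sum in each TGFβ/IL-34/Jag1 library. Plasmacytoid dendritic cells, another cell type with some B-lineage genes, were checked with 6 markers that summed to 892 to 1060 in TGFβ/IL-34/Jag1, 969 to 1190 in TGFβ/IL-34, 752 to 1163 with FICZ, 1013 to 1092 with FICZ and Jag1 and 6365 in Jag1 only. Of these Spib was at 121, 149 and 44.8 in TGFβ/IL-34/Jag1, 293 and 401 in TGFβ/IL-34 and 4977 in Jag1 only. Tcf4, at 726, 693 and 759, held most of the sum in TGFβ/IL-34/Jag1. Siglech was at 30.0, 158 and 161 in TGFβ/IL-34/Jag1 and at 5.49 or lower elsewhere. Ly6d was at 1.86 or lower in all 11 libraries and so does not set the groups apart. Within TGFβ/IL-34/Jag1 the lowest Siglech value belonged to the library with the highest Blk. The 8 OP9 stroma markers summed to 332 to 889 in TGFβ/IL-34/Jag1, to 620 to 4096 in TGFβ/IL-34/Jag1/FICZ and to 12.8 to 22.0 in TGFβ/IL-34. The library with the sum of 4096, replicate 3, was also the one with the most Blk of its group (28.5). The part of any of these cell types in the level of Blk was not tested.

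**Figure D1:**
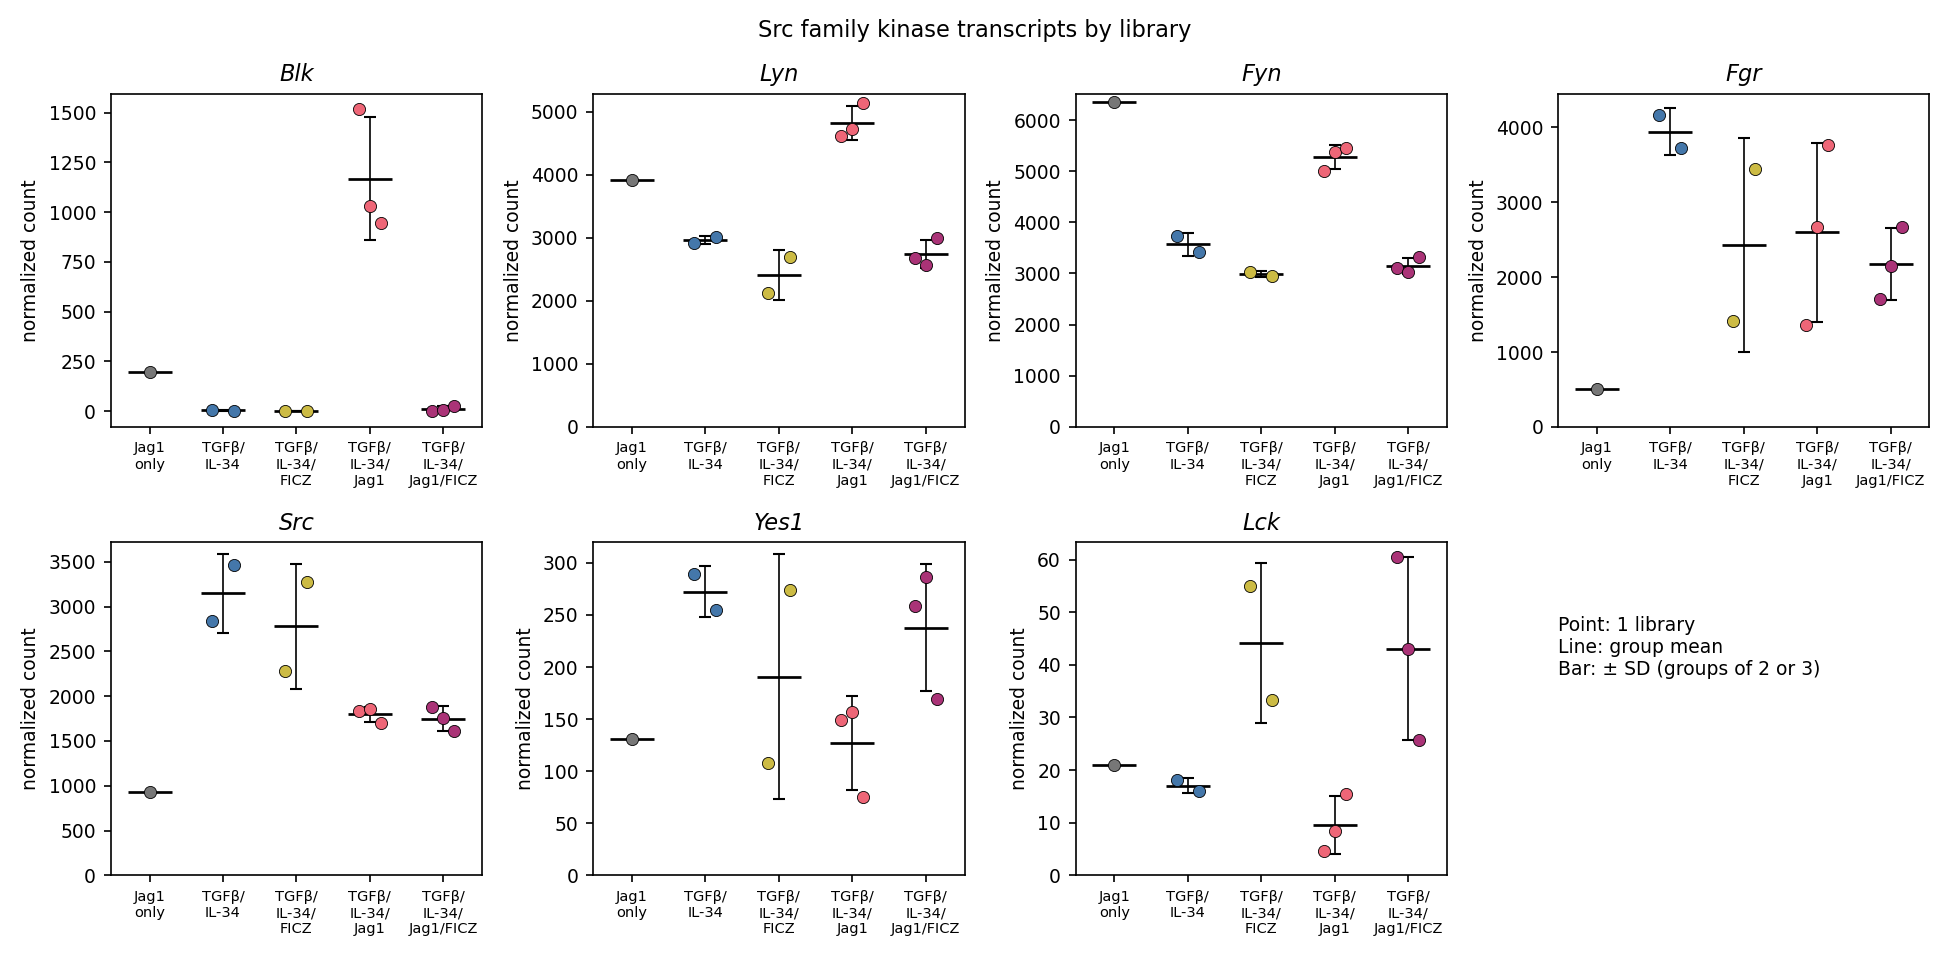
Normalized counts of each of the 7 kinases in every library (points), by culture group, with the group mean (line) and ± SD (bar, groups of 2 or 3). Blk is high in the 3 TGFβ/IL-34/Jag1 libraries (948 to 1520) and at 195 in Jag1 only, Lyn and Fyn are higher in TGFβ/IL-34/Jag1 than in any TGFβ/IL-34 library without Jag1 or with FICZ, and Lck is at 60.5 or lower in every library.

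Lyn (ENSMUSG00000042228, chromosome 4, 3678061 to 3813122) phosphorylates both activating and inhibitory receptors and is a main Src family kinase of myeloid and B cells. It stood at 2919 and 3009 normalized counts in TGFβ/IL-34 and at 4615, 4717 and 5131 in TGFβ/IL-34/Jag1. With FICZ it was at 2127 and 2687, and with FICZ and Jag1 at 2671, 2572 and 2989. The TGFβ/IL-34/Jag1 libraries lay above all the others, and the Jag1 only library (3912) came next. The remaining 3 groups overlapped their neighbours in the order of means, from 2407 ± 396 (SD, n = 2) with FICZ to 2744 ± 218 (SD, n = 3) with both and 2964 ± 64.0 (SD, n = 2) with neither.

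Fyn (ENSMUSG00000019843, chromosome 10, 39244851 to 39442227), which acts in integrin and immune receptor signalling, followed a similar order. It stood at 3731 and 3413 in TGFβ/IL-34, at 3038 and 2946 with FICZ, at 5013, 5380 and 5458 with Jag1 and at 3100, 3031 and 3327 with both. Its highest value was in Jag1 only (6349), outside the range of TGFβ/IL-34/Jag1, whose mean was 5284 ± 238 (SD, n = 3).

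Fgr (ENSMUSG00000028874, chromosome 4, 132701257 to 132730053) is a kinase of granulocytes, monocytes and macrophages. Its values were 4172 and 3720 in TGFβ/IL-34, 1421 and 3443 with FICZ, 1366, 2668 and 3762 with Jag1 and 1711, 2156 and 2672 with both. The 4 groups overlapped along the order of means, and the spread within TGFβ/IL-34/FICZ (2432 ± 1430, SD, n = 2) and TGFβ/IL-34/Jag1 (2599 ± 1199, SD, n = 3) was wide. Only Jag1 only, at 511, stood below the rest.

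Src (ENSMUSG00000027646, chromosome 2, 157260355 to 157313782), the founding member of the family and a kinase of focal adhesions and the osteoclast cytoskeleton, was at 2838 and 3460 in TGFβ/IL-34 and at 2287 and 3276 with FICZ. In the groups with Jag1 it was at 1835, 1854 and 1705 without FICZ and at 1885, 1751 and 1609 with it. The groups with and without Jag1 did not overlap, whether FICZ was present or not, and Jag1 only was the lowest at 932.

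Yes1 (ENSMUSG00000014932, chromosome 5, 32768101 to 32845256) is a widely expressed kinase closely related to Src and Fyn. It ranged from 75.2 to 289 over the 11 libraries, with means of 272 ± 24.5 (SD, n = 2) in TGFβ/IL-34, 191 ± 118 (SD, n = 2) with FICZ, 127 ± 44.9 (SD, n = 3) with Jag1 and 238 ± 61.1 (SD, n = 3) with both. Each of these groups overlapped its neighbour in the order. TGFβ/IL-34/Jag1 (149, 157 and 75.2) lay below both TGFβ/IL-34 libraries (289 and 255) and below TGFβ/IL-34/Jag1/FICZ (258, 286 and 169).

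Lck (ENSMUSG00000000409, chromosome 4, 129442137 to 129467434), the kinase bound by the T cell coreceptors CD4 and CD8, was low everywhere. It stood at 18.0 and 16.1 in TGFβ/IL-34, at 4.68, 8.39 and 15.5 with Jag1, at 54.9 and 33.4 with FICZ and at 60.5, 42.9 and 25.8 with both. The 5 libraries with FICZ were the highest 5 of the 11. Jag1 only held 20.9.

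Levels can be compared between genes only per length, here as normalized counts per kilobase of the longest coding transcript. The members summed to 3191 ± 5.71 (SD, n = 2) per kilobase in TGFβ/IL-34, 2493 ± 590 (SD, n = 2) with FICZ, 3892 ± 257 (SD, n = 3) with Jag1 and 2338 ± 151 (SD, n = 3) with both, and to 2785 in Jag1 only. In TGFβ/IL-34/Jag1 the order of levels per kilobase was Lyn (1337 ± 75.9), Fyn (1053 ± 47.4), Fgr (594 ± 274), Blk (481 ± 127), Src (405 ± 18.3), Yes1 (16.6 ± 5.88) and Lck (4.35 ± 2.51; SD, n = 3 each). Fgr, Blk and Src did not differ there beyond their spread. In TGFβ/IL-34 the order was Fgr (902 ± 73.2), Lyn (822 ± 17.8), Fyn (712 ± 44.8), Src (710 ± 99.1), Yes1, Lck and Blk, and Blk was the lowest of the 7 (1.62 ± 0.768; SD, n = 2 each).

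Blk made up 12.5% ± 4.09 (SD, n = 3) of the summed level per kilobase in TGFβ/IL-34/Jag1, from 9.38% to 17.1%, and 2.88% in Jag1 only. Its share was 0.0507% in TGFβ/IL-34, 0.0116% with FICZ and 0.201% with both. Over the same groups the share of Lyn was 34.4% ± 0.590 (SD, n = 3) with Jag1 and 25.8% ± 0.603 (SD, n = 2) in TGFβ/IL-34, while that of Src was 10.5% ± 1.09 (SD, n = 3) and 22.2% ± 3.15 (SD, n = 2). With the combined length of all exons of each gene in place of the longest coding transcript, Fyn dropped below Fgr in TGFβ/IL-34/Jag1 and the share of Blk there was 15.5%, from 11.5% to 21.3%.

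**Figure D2:**
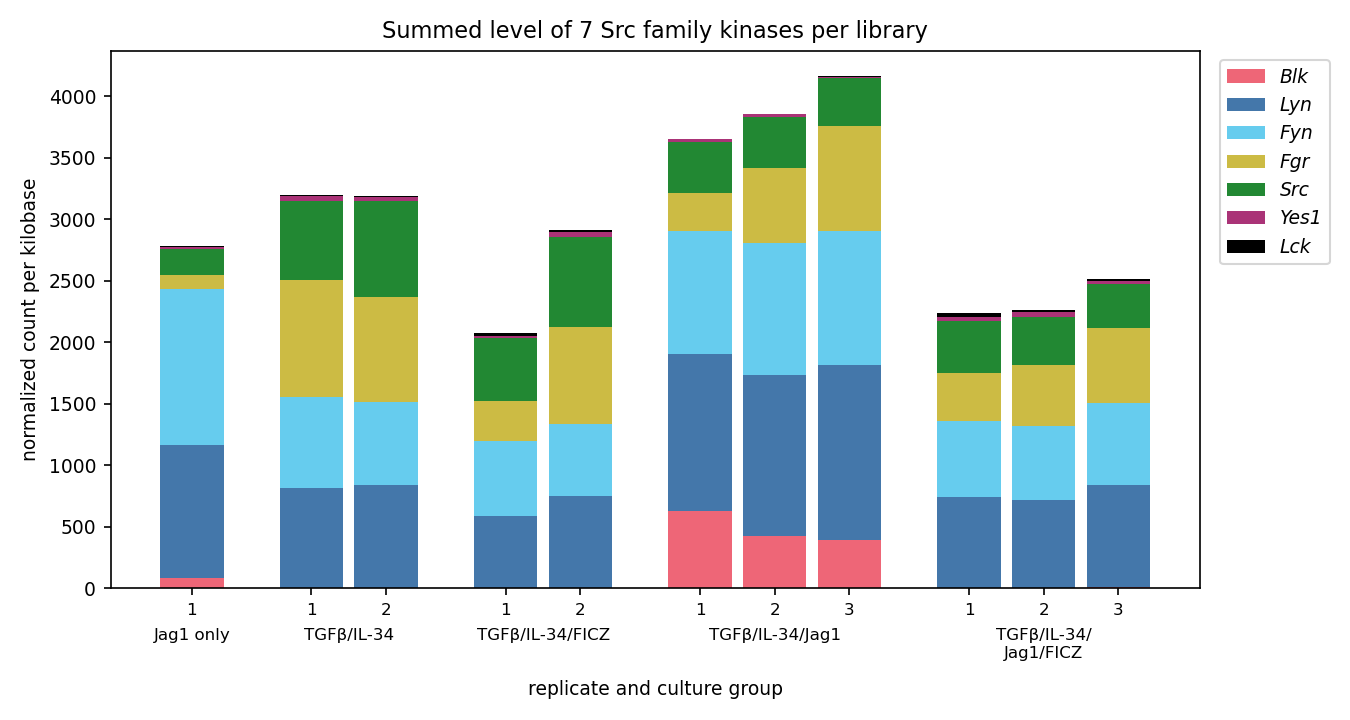
Stacked normalized counts per kilobase (longest coding transcript) of the 7 kinases in each library, with replicate numbers and culture groups on the horizontal axis. The sum is 3653 to 4163 in TGFβ/IL-34/Jag1, where Blk takes 9.38% to 17.1%, and 2237 to 2511 in TGFβ/IL-34/Jag1/FICZ.

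To ask what Jag1, presented on OP9 stroma, did without FICZ, TGFβ/IL-34/Jag1 was compared with TGFβ/IL-34. This comparison cannot separate the ligand from the stromal cells. Lyn rose by 0.70 on the log2 scale (SE 0.158, adjusted p 0.0265), from a mean of 2964 to 4821, and Fyn by 0.56 (SE 0.139, adjusted p 0.0381), from 3572 to 5284. Src fell by 0.80 (SE 0.187, adjusted p 0.0307), from 3149 to 1798. These are limma estimates on log2(normalized count + 1), with Benjamini-Hochberg adjustment over 13095 tested genes, and 3 of the 6 tested members passed an adjusted p of 0.05, 2 higher and 1 lower, where 6.6% of all tested genes passed (2.64% higher and 3.96% lower). Yes1 (−1.16, 95% interval −2.17 to −0.16, adjusted p 0.184), Lck (−0.91, −2.20 to 0.38, adjusted p 0.469) and Fgr (−0.72, −1.70 to 0.26, adjusted p 0.449) did not pass. The median log2 difference of the 6 was −0.76, against −0.00 over all tested genes. All 3 calls were lost when any 1 of the 5 libraries was left out, with adjusted p values of 0.0559 to 0.204 for Lyn, 0.0645 to 0.367 for Fyn and 0.0681 to 0.338 for Src, and also with the replicate number as a block (0.131, 0.163 and 0.129), although the log2 differences kept their sign. Lyn, Fyn and Src did not overlap between the 2 groups, but neither did Yes1 and Lck, which did not pass. Lack of overlap in groups this small thus does not set the called members apart, and its share over all genes was not counted. Between the same groups the summed markers of mast cells and basophils were 5154 to 5175 without Jag1 and 684 to 898 with it. Most of this sum was Gata2, at 4396 and 4164 without Jag1 and at 586, 646 and 504 with it. The platelet and megakaryocyte markers, almost wholly Itga2b, summed to 1995 to 2350 and 549 to 600. Those of granulocytes summed to 384 to 1585 and 266 to 372, while the OP9 stroma markers were higher with Jag1, as given above. The part of these markers in the differences of Lyn, Fyn and Src was not tested.

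The effect of FICZ on these kinases in the presence of Jag1 was read from the 3 cultures with FICZ and Jag1 and the 3 with Jag1 but no FICZ. Lyn fell by 0.81 (SE 0.141, limma, adjusted p 0.00290), from 4821 ± 273 to 2744 ± 218 (SD, n = 3 each), and Fyn fell by 0.74 (SE 0.124, limma, adjusted p 0.00232), from 5284 ± 238 to 3153 ± 154 (SD, n = 3 each). Lck rose by 2.12 (SE 0.518, limma, adjusted p 0.0177), from 9.52 ± 5.50 to 43.1 ± 17.4 (SD, n = 3 each). Thus 3 of the 6 tested members passed, 1 higher and 2 lower, where 17.7% of all tested genes passed (10.9% higher and 6.71% lower). Src (−0.04, 95% interval −0.41 to 0.33, limma, adjusted p 0.910), Fgr (−0.16, −1.03 to 0.72, adjusted p 0.848) and Yes1 (0.94, 0.04 to 1.84, adjusted p 0.147) did not pass. The median log2 difference of the 6 was −0.10, against −0.01 over all tested genes.

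In the 3 experiments that held both cultures, the log2 ratio of Lyn with FICZ to Lyn without it was −0.79, −0.87 and −0.78. For Fyn these ratios were −0.69, −0.83 and −0.71. These 2 kinases passed in all 16 alternative settings, with adjusted p values (limma) up to 0.0214 for Lyn and 0.0183 for Fyn. Lck was higher in each experiment, by 3.44, 2.23 and 0.70. Its call rests on low values, and it was lost with quantile normalization (adjusted p 0.0505), with no filter (0.0719), without TGFβ/IL-34/Jag1 replicate 1 (0.0584) and without replicate 1 or 2 of TGFβ/IL-34/Jag1/FICZ (0.0833 and 0.0691). Yes1 was higher with FICZ in each experiment, by 0.79, 0.86 and 1.16, whereas Fgr moved by 0.32, −0.31 and −0.49.

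Markers of other cell types also differed between these groups. The 9 T cell markers summed to 68.3 to 160 without FICZ and 94.8 to 180 with it, and these ranges overlapped. Of them Cd3g was at 0 in the 3 TGFβ/IL-34/Jag1 libraries and at 82.0, 13.9 and 64.3 with FICZ, Cd3d at 0 and at 21.4, 9.42 and 9.16, while Cd3e was at 0 and at 4.42, 2.19 and 6.71. Cd8a, which held most of the sum without FICZ, was at 46.9 to 148 there and at 33.8 to 60.8 with FICZ, and Cd4 was at 3.11 or lower in all 6 libraries. Within the group with FICZ, Lck was at 60.5, 42.9 and 25.8 where Cd3g was at 82.0, 13.9 and 64.3. The 9 markers of neutrophils and granulocyte progenitors summed to 266 to 372 without FICZ and to 8353 to 12938 with it, the 7 of mast cells and basophils to 684 to 898 and 8022 to 11443, and the 5 of platelets and megakaryocytes to 549 to 600 and 4488 to 5627, the last almost wholly Itga2b. Gata2 and Cpa3 held most of the mast cell and basophil sum in these libraries. The mast cell gene Fcer1a was at 0 in all libraries and Ly6g was at 0 in both groups. The 7 NK cell markers summed to 168 to 243 and 780 to 843, mostly Klrk1. The part of these markers in the differences of Lyn, Fyn and Lck was not tested.

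FICZ without Jag1 gave no call. Between the groups without Jag1, with and without FICZ, 0 of the 6 members passed (limma), where 0.0229% of all tested genes did (0.0153% higher, 0.00764% lower). An unadjusted p under 0.05 was reached by 0 of the 6. The log2 differences were 1.28 for Lck (95% interval −0.13 to 2.69), −0.83 for Fgr (−1.90 to 0.24), −0.66 for Yes1 (−1.76 to 0.44), −0.31 for Lyn (−0.69 to 0.07), −0.25 for Fyn (−0.59 to 0.08) and −0.20 for Src (−0.65 to 0.26). Without replicate 2 of TGFβ/IL-34/FICZ, which leaves 1 library that is assumed to vary like the other groups, 4 of the 6 passed, all lower: Lyn, Fgr, Src and Yes1. In that setting 43.9% of all tested genes passed. The 2 FICZ libraries were far apart in Fgr (1421 and 3443) and Yes1 (108 and 274) and close in Fyn (3038 and 2946). In both groups without Jag1 Blk was at 5.25 or lower, with 2 to 8 reads per group, too few to give a direction.

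For Jag1 in the presence of FICZ, the 3 cultures with both were set against the 2 with FICZ but no Jag1. Here 0 of the 6 members passed (limma), where 2.02% of all tested genes did (1.41% higher, 0.603% lower). The unadjusted p was under 0.05 in 1, Src, at −0.65 (95% interval −1.06 to −0.23, adjusted p 0.106). On leaving out 1 of the 2 libraries with FICZ but no Jag1, Src passed (replicate 1 left out, limma, adjusted p 0.0276) or Lyn did (replicate 2 left out, 0.0425). Of all tested genes 1.71% passed in the former setting and 44.6% in the latter. Fyn was at 0.07 (95% interval −0.23 to 0.38) and Lyn at 0.20 (−0.15 to 0.55).

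For the interaction of Jag1 and FICZ, 0 of the 6 members passed (limma), where 1.39% of all tested genes did (1.17% higher, 0.221% lower). Those with an unadjusted p under 0.05 were 3, Fyn (−0.49, SE 0.196, adjusted p 0.230), Lyn (−0.50, SE 0.223, adjusted p 0.259) and Yes1 (1.60, SE 0.639, adjusted p 0.230). An effect of FICZ on Lyn or Fyn that depends on Jag1 was therefore not shown for either. Fyn and Yes1 passed once replicate 2 of TGFβ/IL-34/FICZ was left out (limma, adjusted p 0.0230 and 0.0120), a setting in which 42.1% of all tested genes passed.

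With both signals together, set against TGFβ/IL-34 alone, Src fell by 0.84 (SE 0.187, limma, adjusted p 0.0332) and was the 1 member of 6 to pass, where 4.48% of all tested genes did (3.12% higher, 1.37% lower). The call was lost when any 1 of the 5 libraries was left out (adjusted p 0.0897 to 0.300). Lyn was at −0.11 (95% interval −0.46 to 0.24) and Fyn at −0.18 (−0.49 to 0.13). The comparisons of a group with TGFβ/IL-34 share its 2 libraries.

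**Figure D3:**
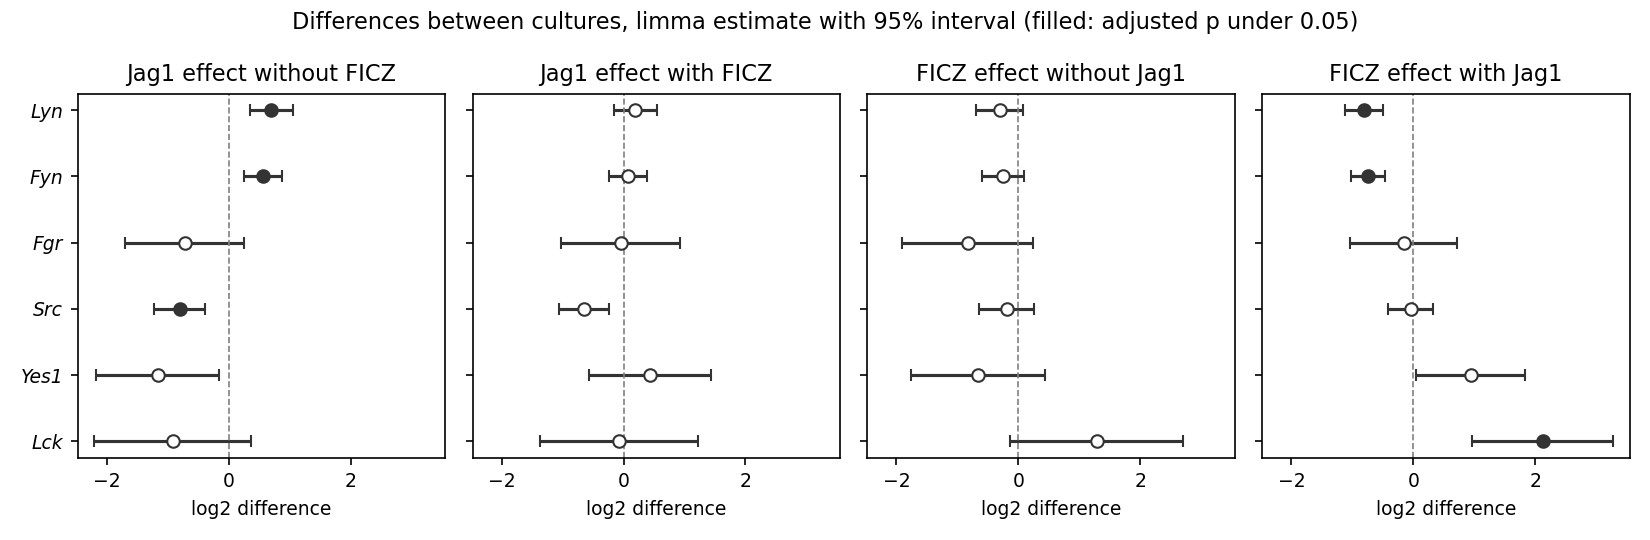
Limma estimates of the log2 difference (horizontal axis, log2(normalized count + 1)) with 95% intervals for the 6 tested kinases in 4 comparisons, filled where the adjusted p is under 0.05. Lyn and Fyn lie at 0.70 and 0.56 for Jag1 without FICZ and at −0.81 and −0.74 for FICZ with Jag1, and Src lies at −0.80 for Jag1 without FICZ and −0.65 with it.

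Members also differed in which of them varied together over the 11 libraries, which is a description, since the libraries of a group share their treatment. On the log2 scale Pearson's r was 0.964 between Blk and Lyn, 0.891 between Blk and Fyn, 0.897 between Lyn and Fyn, 0.740 between Fgr and Src and −0.810 between Blk and Lck. Among 11565 genes with a mean of at least 50 in a group, those most like Blk were Rmnd5a (r 0.975), a subunit of the CTLH ubiquitin ligase, Aoc1 (0.975), a diamine oxidase, and Slc37a1 (0.972), a sugar-phosphate transporter. Aoc1 had means of 1274 in TGFβ/IL-34/Jag1, 673 in Jag1 only and 72.7 to 173 in the other groups. Lyn was nearest to Lpin1 (0.972), the complement gene C1qb (0.970) and Rab11fip5 (0.969), and Fyn to the adhesion gene Nectin4 (0.979), Ubl3 (0.974) and Rfk (0.973), riboflavin kinase.

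The genes most like Src were Qpct (0.956), Rexo2 (0.954) and Ptk2 (0.953). Ptk2 encodes focal adhesion kinase, a partner and substrate of Src, and had means of 511 in TGFβ/IL-34, 434 with FICZ, 171 with Jag1, 160 with both and 51.2 in Jag1 only. Fgr was nearest to Marveld2 (0.966), Dhx29 (0.964) and Ucp2 (0.963), Lck to Nt5c3 (0.964), Nt5dc2 (0.946) and Rab38 (0.940), and Yes1 to Acin1 (0.915), Mafg (0.910) and Slc20a1 (0.897).

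Genes that set the activity of the kinases were read from a list of 21, of which 20 were tested. With Jag1 alone 1 of them passed, where 6.6% of all tested genes did. This was Unc119, which binds the lipid anchor of Src kinases and fell from 547 ± 13.6 (SD, n = 2) to 206 ± 10.1 (SD, n = 3), a log2 difference of −1.40 (limma, adjusted p 0.0154), lost when either TGFβ/IL-34 library was left out. The median of the list was −0.19. With FICZ added to Jag1, 9 of 20 passed, 4 higher and 5 lower, where 17.7% of all tested genes did (10.9% higher and 6.71% lower). The median was 0.39, against −0.01 over all tested genes. On the higher side were Matk (1.59, limma, adjusted p 0.0102), a relative of Csk, Lime1 (1.43), an adaptor for Csk, Unc119 (1.20) and Cblb (0.71), a ubiquitin ligase. On the lower side the largest were Ptpn22 (−1.54, limma, adjusted p 0.00178), a phosphatase that acts on Src kinases with Csk, Sla (−1.29), an adaptor that dampens receptor signalling, and the phosphatases Ptpn18 (−0.998) and Ptpn1 (−0.73). Matk, Unc119 and Ptpn22 passed in all 16 alternatives, and Ptpn1 was lost without TGFβ/IL-34/Jag1/FICZ replicate 2. Lime1, Cblb, Sla and Ptpn18 were lost when any of 4 or 5 of the 6 libraries was left out, and with no filter. Cblb was also lost with the replicate number as a block, and Lime1 with the flow cell as a block. Csk itself was at 4585 ± 373 (SD, n = 2), 4510 ± 400 (SD, n = 3) and 5002 ± 388 (SD, n = 3) in TGFβ/IL-34, with Jag1 and with both, and passed in neither comparison.

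ITAM signalling genes, from receptor chains through Syk to adaptors, numbered 27 with 24 tested, and 3 of them (Cd79a, Cd79b and Cd247) also stand in the B and T cell marker lists. With Jag1 alone 2 of 24 passed, where 6.6% of all tested genes did, both lower: Vav2 (−1.29, limma, adjusted p 0.00704), a guanine nucleotide exchange factor, and the kinase Btk (−0.85, limma, adjusted p 0.0276). Vav2 was lost without either TGFβ/IL-34 library and Btk without any 1 of 4 libraries. Btk was also lost with no filter and with the experiment code of the descriptions or the replicate number as a block. With FICZ added to Jag1, 5 of 24 passed, a share near the 17.7% of all tested genes, and all 5 did so in all 16 alternatives. The T cell adaptors Lat (3.90, from 11.4 ± 9.06 to 170 ± 82.1) and Skap1 (3.67, from 0.315 ± 0.546 to 15.4 ± 5.35) were higher, as were Vav2 (1.43) and Vav3 (0.95), and Vav1 was lower (−0.90, from 4482 ± 472 to 2400 ± 269; SD, n = 3 each). The ITAM chains Tyrobp and Fcer1g and the kinase Syk passed in neither comparison, with Syk at 7550 ± 972 and 9154 ± 381 (SD, n = 3 each) with Jag1 and with both.

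Inhibitory receptors with ITIM motifs, together with the phosphatase Inpp5d, were a list of 19, all tested. With Jag1 alone 5 of 19 passed, all lower, where 6.6% of all tested genes passed (3.96% lower), and the list median was −0.95 against −0.00 over all tested genes. Pecam1, an adhesion receptor of leukocytes and endothelium, fell from 1238 ± 151 (SD, n = 2) to 224 ± 33.3 (SD, n = 3), a log2 difference of −2.47 (limma, adjusted p 8.85e-05). Cd300lf fell by 1.75, Pilra by 1.43 and Fcgr2b, the inhibitory Fc receptor, by 1.12, and Lilrb4a was the other gene that passed. Pecam1 and Cd300lf passed in all 15 alternatives, Fcgr2b was lost without either TGFβ/IL-34 library, and Pilra and Lilrb4a without any 1 of 4 libraries. Pilra and Lilrb4a were also lost with no filter, and Pilra with only the groups compared. Lilrb4a was lost too with the experiment code of the descriptions or the replicate number as a block. With FICZ added to Jag1, 9 of 19 passed, 7 higher and 2 lower, where 17.7% of all tested genes did, with a list median of 0.50. Pecam1 rose to 3812 ± 346 (SD, n = 3), a log2 difference of 4.09 (limma, adjusted p 8.66e-07), Clec12a from 274 ± 122 to 2192 ± 421 (3.09), and Cd300lf by 1.22. Clec4a2 (1.99) was lost in 9 of 16 alternatives. The 2 lower genes were Cd72, a B cell receptor for CD100 (−1.24, from 5720 ± 1211 to 2396 ± 291), and Inpp5d (−0.87), which was lost in 6 of 16. In the interaction Pecam1 (2.84, limma, adjusted p 0.00177) and Cd300lf (1.46, limma, adjusted p 0.0261) passed, the latter lost in 7 of 20 alternatives.

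Substrates of Src kinases in the cytoskeleton and at adhesions were a list of 18, all tested. With Jag1 alone 2 of 18 passed, where 6.6% of all tested genes did. Bcar1, the docking protein p130Cas, rose from 18.1 ± 2.59 (SD, n = 2) to 434 ± 155 (SD, n = 3), a log2 difference of 4.44 (limma, adjusted p 0.00179), and Sh3kbp1, an adaptor for Cbl proteins, fell by 0.82, a call lost with the replicate block and without either TGFβ/IL-34 library. With FICZ added to Jag1, 4 of 18 passed, a share near the 17.7% of all tested genes. Bcar1 fell by 3.39, to 45.9 ± 35.1 (SD, n = 3; limma, adjusted p 0.00155), and had the largest log2 difference of this list in both comparisons. In Jag1 only it stood at 10.4, where Blk stood at 195. Sh3kbp1 (0.73) and Stap1 (0.87) were higher and the focal adhesion kinase relative Ptk2b was lower (−0.79). Bcar1 passed in every alternative of both comparisons, and Stap1 and Ptk2b were each lost on leaving out any of several libraries. Stap1 was also lost with no filter. Ptk2b stood at 10419 ± 2245 with Jag1 and 5975 ± 874 with both (SD, n = 3 each). The list medians were −0.25 and 0.08.

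**Figure D4:**
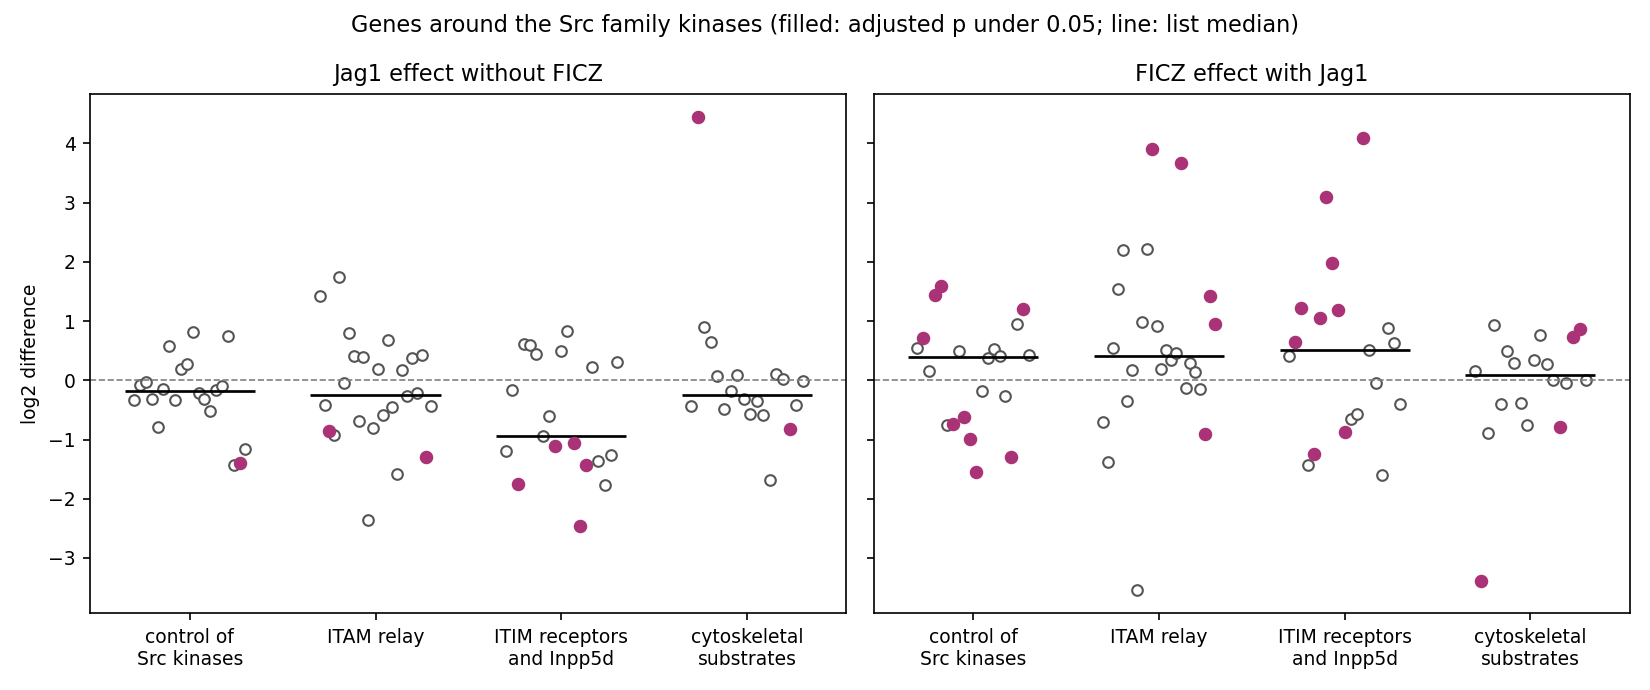
Log2 differences (log2(normalized count + 1)) of the tested genes of 4 lists around the Src family kinases, for Jag1 without FICZ (left) and FICZ with Jag1 (right), filled where the adjusted p (limma) is under 0.05, with the list median as a line. All 5 filled ITIM receptor genes lie below 0 on the left and 7 of 9 above 0 on the right.

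Around the genes themselves, the strand setting of the authors' quantification was not found, so reads of a member and of a gene on the opposite strand at the same place may not be told apart. Blk overlaps 1 long noncoding gene on the plus strand, and Lyn overlaps the ribosomal protein gene Rps20 on the minus strand. The nearest protein-coding genes of the table on either side of Blk did not share its pattern. Fam167a (chromosome 14, 63673843 to 63702951), next to the Blk start, stood at 12.6 to 108 over the 11 libraries with 99.6, 37.7 and 28.8 in TGFβ/IL-34/Jag1 and 108 and 22.3 in TGFβ/IL-34, and Gata4, on the other side, was at 0 in all 11. The 7 kinases share sequence, and fragments that fit more than 1 of them would be divided between them by salmon, so small values beside large ones, such as those of Lck, are uncertain to that extent.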

How the data were processed

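Bulk RNA sequencing of 11 libraries in 5 groups was analysed, grouped by the sample titles. Salmon, with Ensembl transcripts of GRCm39, tximport (sums per gene) and DESeq2 (scaling) were used by the authors, in versions not given in the sources used here. The deposited values are this normalized signal per gene, called normalized counts above. The other deposited file lists conditions, which matched the labels in 11 of 11 libraries, and experiment codes, which for replicate 1 of TGFβ/IL-34 (1 library) was not the one in its description.

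Low values of single-transcript genes lay within 0.1 steps of a whole multiple of a step found per library (80.9% to 98.8% of values of at most 15 steps, but 52.3% to 58.1% over all genes). The step gave the worth of 1 read, but whole reads were not recovered and no count model was run. Of 21860 genes 21676 matched GENCODE vM39, which gave positions and lengths, and promoters were read from GRCm39.

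Genes with at least 10 in at least 2 libraries (13095) entered a linear model of log2(value + 1) in limma 3.58.1 (R 4.3.3; lmFit, contrasts.fit and eBayes, trend = TRUE). It had a mean for each group, no covariate, all 11 libraries and 6 residual degrees of freedom. Two-sided p-values were adjusted in each comparison by Benjamini-Hochberg over all tested genes, at a threshold of 0.05. The script was tested on simulated data. Tables were made in Python 3.11.15 with scipy 1.17.1. Counting intervals are exact conditional 95% intervals on estimated reads and cover counting error only. Nothing in the labels ties replicates to separate animals, so p-values measure the spread between these libraries.

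The members, lists and tests were chosen with earlier results of these data known, and the lists are from common knowledge. Named were all members, the 3 genes closest to each by Pearson's r, up to 4 genes per direction and list with the largest fold among those that passed for Jag1 without FICZ or FICZ with Jag1, and defining markers. Genes named beyond that (Csk, Syk, Tyrobp, Fcer1g, and the neighbours of Blk) were added after their values were seen. Replicate numbers were checked for pairing: in the groups with Jag1 and TGFβ/IL-34, with and without FICZ, same-numbered libraries share an experiment code and their deviations from the group means had correlations across genes of 0.153, 0.122 and 0.166, so the numbers pair these libraries. For Jag1 with FICZ they also share the code, with correlations of 0.0591 and 0.0578, and in the other comparisons all were under 0.1.

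As alternatives, values were quantile normalized, the pseudocount was set to 0.5 or 4, and the filter was dropped. Array weights and only the groups compared were also used. The block was the experiment code of the sample description, the code in it that was read as a flow cell, or the replicate number. Each library was left out in turn, and a block made from the codes in the authors' file was added after the data were seen.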

Additional observations from a re-analysis of the deposited data

Results flagged for a closer look

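The Jag1 only library enters no test, since it is a single culture and differs from TGFβ/IL-34/Jag1 in lacking both TGFβ and IL-34. Its values for Blk, Lyn and Fyn, of which Blk prompted the choice of these genes, were higher than in both TGFβ/IL-34 libraries. With 1 library that comparison covers counting error only. Blk was at 195 there, against 5.25 and 2.61, a ratio to their mean of 49.6 with a counting interval of 24.7 to 117. Lyn was at 3912, against 2919 and 3009, and Fyn at 6349, against 3731 and 3413. The same library was the lowest of the 11 in Fgr (511), Src (932) and Epcam (657). The spread between cultures of this kind is unknown, and the difference was not tested.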

How the results depend on the processing

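The counts of called members other than Blk changed as follows. For Jag1 without FICZ (3) the count was 1 with the experiment codes given in the descriptions as a block, 0 with the replicate block and 0 to 0 when each library was left out. For FICZ without Jag1 (0) it was 0 to 4 with each library left out. For both signals together (1) it was 0 with no filter, with those codes as a block, with the flow cell as a block, with the replicate block and with each library left out (0 to 0), 2 with only the groups compared (Fgr and Src) and 3 with array weights (Fgr, Lck and Src). For Jag1 with FICZ (0) and the interaction (0) it was 0 to 1 and 0 to 2 with each library left out. In each comparison the other alternatives left the count within 1.5 times, and for FICZ with Jag1 all 16 did. No call changed direction.

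The replicate number as a block kept the calls of Lyn, Fyn and Lck for FICZ with Jag1, where same-numbered libraries share an experiment and deviate together. For Jag1 with FICZ they also share an experiment, with correlations of 0.0591 and 0.0578, and the replicate block left the count at 0. In the other comparisons the descriptions give same-numbered libraries different experiments (the authors' file gives replicate 1 the same one), and the replicate block lost the 3 calls for Jag1 without FICZ (count 0) and that of Src for both signals together (count 0). Over all genes the block moved the count of calls from 864 to 527 for Jag1 without FICZ, from 587 to 139 for both signals together and from 264 to 112 for Jag1 with FICZ. With no filter 436 genes passed for Jag1 without FICZ, and with array weights 2627. Without replicate 2 of TGFβ/IL-34/FICZ 5734 genes passed for FICZ without Jag1, in place of 3.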

Other observations

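Among other kinases related to Src, 5 of 6 listed were tested, and Ptk6, a kinase of epithelial cells, passed for FICZ with Jag1 (0.87, SE 0.195, limma, adjusted p 0.0113), from 435 ± 96.0 to 788 ± 93.5 (SD, n = 3 each). Its highest value was in Jag1 only (2066). Leaving out the second library with both Jag1 and FICZ ended the call, and no other kinase of this list passed in any comparison.

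Plcg1, the phospholipase activated downstream of ITAM receptors, was higher with Jag1 in the presence of FICZ (1.39, limma, adjusted p 0.0168), from 496 ± 165 (SD, n = 2) to 1278 ± 231 (SD, n = 3), and Blnk, the adaptor that links Syk to it in B cells, was lower (−2.79, limma, adjusted p 0.0269), from 113 ± 11.5 (SD, n = 2) to 17.4 ± 11.2 (SD, n = 3). They were lost in 6 and 9 of 15 alternatives. These genes, like Ptk6, were chosen after their values were seen.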
